A study of Mus musculus with 6 samples.

Results

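Schwann cells are the glia of peripheral nerves, and in the heart they ensheathe the sympathetic, parasympathetic and sensory axons that run through the myocardium. Most cardiac Schwann cells are of the non-myelinating (Remak) kind, which wrap bundles of thin axons, and a smaller number build myelin around single axons. The genes described here are 6 markers of these cells, S100b, Sox10, Cdh19, Gfra3, Mbp and Ngfr. They were chosen by name, with earlier results of these data known. Each is the row of the FPKM table whose Ensembl identifier carries that symbol in GENCODE, which gave 6 of 54532 rows. All 6 were detected in every library, with 10 to 438 reads per gene and library.

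The data were RNA sequencing of left ventricular myocardium from 3 chow-fed control mice (Chow) and 3 HFpEF mice, with 1 library per mouse. All were male C57BL/6 mice, 6 to 8 weeks old at the start. HFpEF mice were given for 12 weeks a high-fat diet with 60% of kcal from fat together with L-NAME, which blocks nitric oxide synthase, in the drinking water at 0.5 g/L, as a model of heart failure with preserved ejection fraction. Chow mice had standard chow and plain water for the same 12 weeks, so diet and L-NAME cannot be told apart. The labels name the tissue as heart, and left ventricle comes from the study's methods.

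Levels are FPKM (fragments counted on a gene for each kilobase of its exons, divided by a denominator for each library). They can be compared between genes because they are per length. Differences are log2 fold changes, HFpEF minus Chow, of FPKM + 0.1, fitted with limma to the 14225 genes that reached an FPKM of 0.5 in 3 or more libraries. A differentially expressed gene (DEG) had to pass 2 thresholds, a Benjamini-Hochberg adjusted p under 0.05 over all genes tested and a log2 fold change of 2 or more in either direction. The two-sided exact permutation test was run on each of the 6 genes as well, and 3 mice against 3 cannot give a p below 0.1.

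Each gene has a place in Schwann cell biology. Sox10 is the transcription factor that neural crest cells keep as they enter the Schwann lineage. S100b is a calcium-binding protein of the glial cytoplasm, and Cdh19 is a cadherin of Schwann cell precursors and their descendants. Gfra3 is the coreceptor for artemin and signals through Ret, and Ngfr is the p75 neurotrophin receptor, found on immature and non-myelinating Schwann cells. Mbp, myelin basic protein, compacts the cytoplasmic faces of the myelin membrane.

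On GRCm38, Sox10 (ENSMUSG00000033006) lies at chr15:79154908-79165240 on the minus strand and S100b (ENSMUSG00000033208) at chr10:76253853-76261159 on the plus strand. Cdh19 (ENSMUSG00000047216) lies at chr1:110888326-110977584 on the minus strand and Ngfr (ENSMUSG00000000120) at chr11:95568818-95587735 on the minus strand. No exon of the 6 genes overlapped an exon of another annotated gene.

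The RefSeq promoter table (GRCm38.p6) held 2 of the 6 genes, S100b and Ngfr, and the 250 bases before each start are shown because these genes, both without overlap between the groups below, differ in base composition there. Sox10, Cdh19, Gfra3 and Mbp had no entry. The S100b window is chr10:76253586-76253835 on the plus strand, with the CCAAT box (CCAAT, either strand) in capitals. The Ngfr window is chr11:95587699-95587948 on the minus strand, with the GC box (GGGCGG, either strand) in capitals.
S100b: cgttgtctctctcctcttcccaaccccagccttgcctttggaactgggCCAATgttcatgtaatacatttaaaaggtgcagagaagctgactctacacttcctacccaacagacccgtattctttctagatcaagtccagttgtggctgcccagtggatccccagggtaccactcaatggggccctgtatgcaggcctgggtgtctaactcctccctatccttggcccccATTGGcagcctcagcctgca
Ngfr: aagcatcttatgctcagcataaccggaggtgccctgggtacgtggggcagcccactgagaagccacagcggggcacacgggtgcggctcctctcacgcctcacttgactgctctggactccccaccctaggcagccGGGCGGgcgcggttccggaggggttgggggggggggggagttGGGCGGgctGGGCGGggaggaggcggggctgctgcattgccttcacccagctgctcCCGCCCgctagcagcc
The S100b window had a GC content of 53.6% and 2 CpG dinucleotides, and the Ngfr window 70.4% and 16, against medians of 52.4% and 6 over 32851 promoter windows of that length. CCAAT occurred 2 times in the S100b window and 0 times in that of Ngfr, and 33.8% of all windows held it. GGGCGG occurred 4 times in the Ngfr window and 0 times in that of S100b, and 32.7% of all windows held it. A core of the motif bound by SOX proteins (ACAAAG or ACAATG) was in neither window and in 25.2% of all, and the TATA box (TATAAA) in neither and in 12.4% of all. These matches are letters in a window and were not tested as sites.

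All 6 Schwann cell genes had a log2 fold change above 0, from 0.44 for Sox10 to 1.53 for Ngfr, but 0 of the 6 were DEGs, against 0.0562% of all genes tested. Likewise 0 of the 6 had an adjusted p under 0.05 in limma, against 0.0984% of all genes tested. At an unadjusted p under 0.05, 3 of the 6 (Cdh19, Mbp and Ngfr) were higher in HFpEF hearts, against 10.2% of all genes tested, and with voom on recovered reads 2 were, with 0 at an adjusted p under 0.05. All HFpEF libraries lay above all Chow libraries for 4 of the 6 (S100b, Gfra3, Mbp and Ngfr), which held for 15.5% of all genes tested. Ngfr passed the FPKM minimum through its HFpEF libraries, so its place in these counts was partly set by the filter. A log2 fold change above 0 was found for 48.8% of all genes tested, whose median was -0.01, and the median of the 6 was 0.59. In whole tissue, the number of cells of a type and the amount of RNA per cell cannot be told apart. The 6 genes mark overlapping cells and are not independent of each other.

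**Figure D1:**
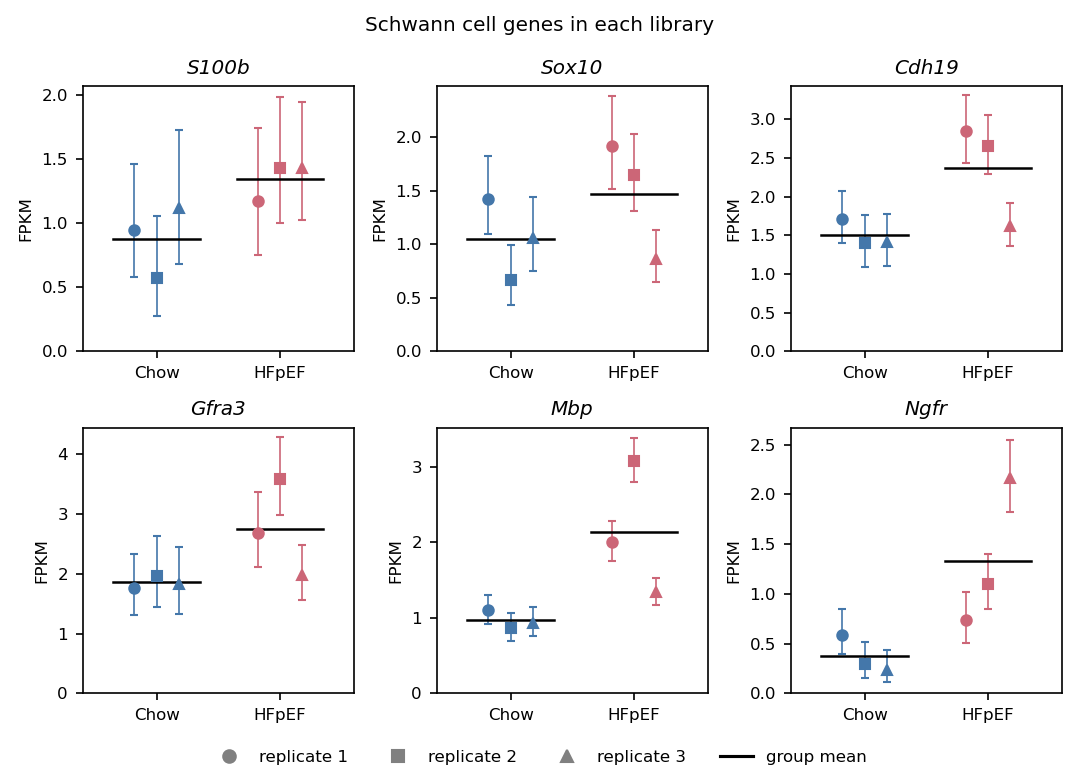
FPKM of the 6 Schwann cell genes (vertical axes, from 0) in the 3 Chow and 3 HFpEF libraries. Points are libraries, bars are exact 95% Poisson intervals on the recovered reads, and black lines are group means. The HFpEF points lie above all Chow points for S100b, Gfra3, Mbp and Ngfr, and HFpEF replicate 3 lies among or near the Chow points for Sox10, Cdh19 and Gfra3.

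Sox10, the lineage transcription factor, had FPKM of 1.43, 0.670 and 1.06 in Chow replicates 1, 2 and 3 and of 1.92, 1.64 and 0.865 in HFpEF replicates 1, 2 and 3. The groups overlapped, since HFpEF replicate 3 lay below Chow replicates 1 and 3. Chow hearts averaged 1.05 ± 0.378 FPKM (SD, n = 3) and HFpEF hearts 1.48 ± 0.546 FPKM (SD, n = 3). Its log2 fold change of 0.44 (standard error 0.37) did not pass the test (limma adjusted p = 0.492, exact permutation p = 0.4). These values rested on 24 to 85 reads per library.

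S100b, the cytoplasmic glial marker, had FPKM of 0.946, 0.574 and 1.11 in the Chow libraries and of 1.17, 1.43 and 1.43 in the HFpEF libraries. The groups did not overlap, but only narrowly, between Chow replicate 3 and HFpEF replicate 1. S100b had 10 to 41 reads per library, the thinnest counts of the 6 beside Ngfr, and the 95% Poisson interval of the lowest library (0.275 to 1.06 FPKM) overlapped that of the highest (1.00 to 1.98 FPKM). Intervals of this kind cover counting error only. Chow hearts averaged 0.878 ± 0.276 FPKM (SD, n = 3) and HFpEF hearts 1.34 ± 0.152 FPKM (SD, n = 3), and their ratio was 1.53. The log2 fold change was 0.60 (standard error 0.27, limma adjusted p = 0.242, exact permutation p = 0.1).

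Cdh19, the Schwann lineage cadherin, had FPKM of 1.71, 1.39 and 1.41 in the Chow libraries and of 2.85, 2.65 and 1.62 in the HFpEF libraries. HFpEF replicates 1 and 2 stood above all Chow libraries, and HFpEF replicate 3 lay between Chow replicates 1 and 3. Chow hearts averaged 1.504 ± 0.176 FPKM (SD, n = 3) and HFpEF hearts 2.37 ± 0.660 FPKM (SD, n = 3). Its log2 fold change was 0.59 (standard error 0.24, limma adjusted p = 0.207, exact permutation p = 0.2).

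Gfra3 (ENSMUSG00000024366), the artemin coreceptor, lies at chr18:34689898-34720387 on the minus strand. It had FPKM of 1.76, 1.97 and 1.83 in the Chow libraries and of 2.68, 3.59 and 1.98 in the HFpEF libraries. It was the most even of the 6 genes among Chow mice, which averaged 1.85 ± 0.105 FPKM (SD, n = 3), while HFpEF mice averaged 2.75 ± 0.807 FPKM (SD, n = 3). The groups were separated by the gap between Chow replicate 2, at 46 reads, and HFpEF replicate 3, at 76 reads. Their FPKM differed by less than their Poisson intervals. The FPKM denominator was 1.17e+07 for Chow replicate 2 and 1.93e+07 for HFpEF replicate 3. The log2 fold change was 0.51 (standard error 0.22, limma adjusted p = 0.234, exact permutation p = 0.1).

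Mbp (ENSMUSG00000041607), the myelin gene among the 6, lies at chr18:82475146-82585637 on the plus strand. It had FPKM of 1.10, 0.862 and 0.935 in the Chow libraries and of 2.00, 3.08 and 1.34 in the HFpEF libraries. The groups did not overlap, and HFpEF replicate 2 was the highest. Mbp had the most reads of the 6 genes, 85 to 438 per library. Chow hearts averaged 0.967 ± 0.124 FPKM (SD, n = 3) and HFpEF hearts 2.14 ± 0.875 FPKM (SD, n = 3), and their ratio was 2.21. With a log2 fold change of 1.00 (standard error 0.31) it had the lowest adjusted p of the 6 (limma adjusted p = 0.146, exact permutation p = 0.1). GENCODE lists 16 transcripts of Mbp, which the gene-level FPKM does not separate.

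Ngfr, the p75 neurotrophin receptor, had FPKM of 0.591, 0.297 and 0.240 in the Chow libraries and of 0.733, 1.10 and 2.16 in the HFpEF libraries. HFpEF replicate 3 was the highest for Ngfr alone among the 6 genes, while it was the lowest HFpEF library for 4 of them (Sox10, Cdh19, Gfra3 and Mbp). Chow hearts averaged 0.376 ± 0.188 FPKM (SD, n = 3) and HFpEF hearts 1.33 ± 0.743 FPKM (SD, n = 3), and their ratio was 3.54. The log2 fold change was 1.53 (standard error 0.47, limma adjusted p = 0.148, exact permutation p = 0.1). Only 1 Chow library reached the FPKM minimum of 0.5, so Ngfr passed the filter through its HFpEF libraries. The Chow values rested on 10 to 29 reads and the HFpEF values on 35 to 144.

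In Chow hearts the order of mean FPKM was Gfra3, Cdh19, Sox10, Mbp, S100b and Ngfr. Only the first neighbours in this order, Gfra3 and Cdh19, had no overlap between their Chow libraries. In HFpEF hearts the order was Gfra3, Cdh19, Mbp, Sox10, S100b and Ngfr, and every pair of neighbours overlapped. These overlaps pool the libraries of a group. Compared within each library, Gfra3 was above Cdh19 and S100b above Ngfr in every Chow library, and Mbp above Sox10 in every HFpEF library. Cdh19 was above Sox10 in every library of both groups. The other pairs of neighbours changed order among the libraries of their group.

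Relative to the Chow mean on the log2 scale, the mean of the 6 genes stood at 0.75, 1.00 and 0.57 in HFpEF replicates 1, 2 and 3, and between -0.23 and 0.25 in the Chow libraries. Cdh19 and Gfra3 had the most alike profiles across the 6 libraries, with a root mean square difference of 0.206, followed by Sox10 and Cdh19 at 0.257. Ngfr was the least like the others, at 0.806 to 1.10 from each. The 6 libraries are shared by all these profiles, so the differences are a description.

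**Figure D2:**
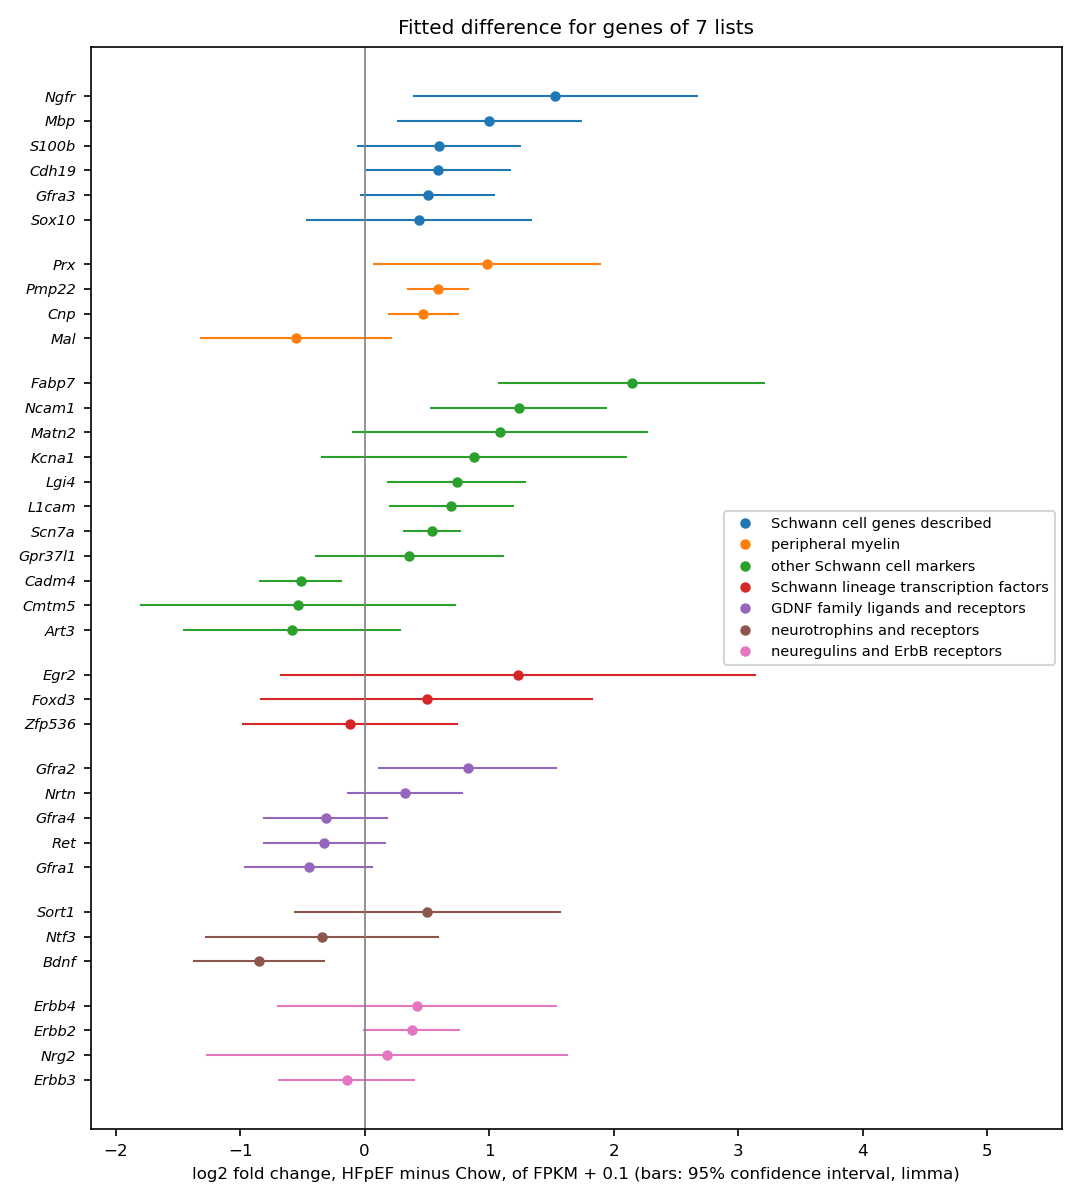
Fitted log2 fold change (horizontal axis, HFpEF minus Chow, of FPKM + 0.1) with its 95% confidence interval from limma for tested genes of 7 lists, coloured by list, without genes that are not reported here. The 6 Schwann cell genes run from 0.44 to 1.53, and the 3 lists of growth factors and their receptors spread to both sides of 0.

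Of 16 other genes of peripheral myelin, 6 passed the FPKM minimum, 5 of them higher in HFpEF at an unadjusted p under 0.05, against 10.2% of all genes tested, and 0 with an adjusted p under 0.05. For the same 5, all HFpEF libraries lay above all Chow libraries, against 15.5% of all genes tested, and the median over the 6 tested was 0.59. At an unadjusted p under 0.05, 3 were higher under quantile normalization or without Chow replicate 3, HFpEF replicate 1 or HFpEF replicate 2. Pmp22, the tetraspan protein of compact myelin, was the most abundant, with FPKM of 21.1 to 22.9 in Chow and 30.9 to 34.9 in HFpEF (log2 fold change 0.59, standard error 0.10, limma adjusted p = 0.0866). Cnp, a phosphodiesterase of non-compact myelin, had FPKM of 3.35 to 4.11 in Chow and 5.10 to 5.40 in HFpEF (log2 fold change 0.47). Mal, a raft-associated proteolipid also found in epithelia, had the opposite sign, with FPKM of 7.26 to 9.83 in Chow and 3.37 to 7.64 in HFpEF (log2 fold change -0.55, limma adjusted p = 0.328, and -0.18 without HFpEF replicate 3).

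Prx, a scaffold protein of the myelinating Schwann cell, had FPKM of 0.229 to 0.371 in Chow and 0.508 to 0.919 in HFpEF (log2 fold change 0.98, limma adjusted p = 0.195). It and 1 other of the 5 above passed the FPKM minimum only through HFpEF libraries, so their place among the 5 was partly set by the filter. The 10 myelin genes that were not tested included Mag, with 0 to 14 reads per library, and Gjb1, with 0 reads in every library. A count of 0 allows up to 3 reads per library.

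Of 19 other Schwann cell markers, 11 were tested and 8 had a log2 fold change above 0, with a median of 0.70. At an unadjusted p under 0.05, 5 were higher, against 10.2% of all genes tested, and 1 was lower, and 0 had an adjusted p under 0.05. Of the 5, Fabp7 passed the FPKM minimum only through HFpEF libraries, so its place was partly set by the filter. Scn7a, the sodium channel of non-myelinating Schwann cells, had FPKM of 6.83 to 7.86 in Chow and 10.6 to 10.7 in HFpEF (log2 fold change 0.54, standard error 0.09, limma adjusted p = 0.0952). It was the most even of these markers among HFpEF mice, and HFpEF replicate 3 did not stand apart from the other two in it. Matn2, a matrix protein of the Schwann cell sheath, had FPKM of 4.69 to 5.48 in Chow, 6.70 and 7.68 in HFpEF replicates 1 and 2, and 25.9 in HFpEF replicate 3. The most abundant genes of the list had the opposite sign, Art3 at FPKM of 54.7 to 60.4 in Chow and 20.6 to 53.9 in HFpEF (log2 fold change -0.58, limma adjusted p = 0.355, and -0.14 without HFpEF replicate 3) and Cadm4 at 15.0 to 16.2 and 9.51 to 13.1 (log2 fold change -0.51, limma adjusted p = 0.12). At an unadjusted p under 0.05, 13.1% of all genes tested were lower in HFpEF, and every HFpEF library was below every Chow library for 19.8%. Cardiomyocytes are known to express Art3 as well.

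Of 7 transcription factors of the Schwann lineage, 3 were tested, and 0 had an unadjusted p under 0.05. Egr2, which switches on the myelin programme and is also an immediate early gene, had FPKM of 0.219 to 0.552 in Chow, 0.574 and 0.347 in HFpEF replicates 1 and 2, and 3.38 in HFpEF replicate 3. Its log2 fold change was 1.23 with a standard error of 0.79 (limma adjusted p = 0.374). Foxd3, a factor of early neural crest, had FPKM of 0.285 to 0.514 in Chow and 0.229 to 1.06 in HFpEF (log2 fold change 0.50, limma adjusted p = 0.604). Zfp536 had FPKM of 0.587 to 0.740 in Chow and 0.359 to 0.871 in HFpEF (log2 fold change -0.12, limma adjusted p = 0.858).

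Gfra3 belongs to the receptors for ligands of the GDNF family, which bind a GFRα coreceptor and signal through the kinase Ret. Of the 8 other genes of this family, 5 were tested, and 0 had an adjusted p under 0.05. Their median log2 fold change was -0.31, and -0.13 without HFpEF replicate 3. Artn, which encodes the ligand artemin, had 0 to 17 reads per library and was not tested, as were Gdnf and Pspn. Ret had FPKM of 1.43 to 1.78 in Chow and 1.08 to 1.54 in HFpEF (log2 fold change -0.32, limma adjusted p = 0.358).

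The ligand neurturin, Nrtn, was the most abundant of the family, with FPKM of 32.2 to 38.8 in Chow and 32.9 to 50.3 in HFpEF (log2 fold change 0.32, limma adjusted p = 0.335). Gfra2, the neurturin coreceptor, had FPKM of 0.607 to 0.913 in Chow and 0.917 to 1.68 in HFpEF and was the only gene of the family with an unadjusted p under 0.05 (log2 fold change 0.83, limma adjusted p = 0.177). The log2 fold change was -0.45 for Gfra1, the GDNF coreceptor (limma adjusted p = 0.256), and -0.31 for Gfra4, the persephin coreceptor (limma adjusted p = 0.38).

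Ngfr binds the neurotrophins and works with Trk receptors and the sorting receptor sortilin. Of 8 such genes, 4 were tested, with a median log2 fold change of -0.15 (0.13 without HFpEF replicate 3) and 0 at an adjusted p under 0.05. The Trk receptor genes Ntrk2 and Ntrk3 were below the FPKM minimum, with 11 to 176 and 15 to 220 reads per library. Bdnf had FPKM of 1.53 to 1.82 in Chow and 0.720 to 1.12 in HFpEF, with every HFpEF library below every Chow library (log2 fold change -0.85, standard error 0.22, limma adjusted p = 0.119). The log2 fold change was -0.34 for Ntf3, which encodes neurotrophin-3 (limma adjusted p = 0.612), and 0.50 for Sort1, sortilin (limma adjusted p = 0.505).

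Neuregulin signalling through the ErbB2 and ErbB3 pair keeps Schwann cells alive and sets myelin thickness. Of 7 neuregulin and ErbB genes, 4 were tested, with a median log2 fold change of 0.28 (-0.08 without HFpEF replicate 2) and 0 at an unadjusted p under 0.05. Erbb3, the receptor that marks the Schwann lineage, had FPKM of 2.67 to 3.19 in Chow and 3.10, 3.13 and 1.83 in HFpEF replicates 1, 2 and 3 (log2 fold change -0.14, limma adjusted p = 0.716). Erbb2, which cardiomyocytes also express, had FPKM of 2.53 to 3.29 in Chow and 3.42 to 4.46 in HFpEF (log2 fold change 0.38, limma adjusted p = 0.217). The log2 fold change was 0.42 for Erbb4 (limma adjusted p = 0.601) and 0.18 for Nrg2 (limma adjusted p = 0.873). Nrg1, the main neuregulin of axons, had 10 to 77 reads per library and was not tested.

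S100b has many relatives that other cells express. Of 10 genes of the S100 family and its receptor Ager, 8 were tested, with a median log2 fold change of 0.37 (0.17 without HFpEF replicate 3) and 0 at an adjusted p under 0.05. S100a1, the S100 protein of cardiomyocytes, had FPKM of 498 to 532 in Chow and 241 to 359 in HFpEF (log2 fold change -0.76, limma adjusted p = 0.118). S100a11 had FPKM of 35.3 to 43.5 in Chow and 51.1 to 71.2 in HFpEF (log2 fold change 0.61, limma adjusted p = 0.119). S100a10 and S100a16 had log2 fold changes of 0.63 and 0.03, respectively.

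Libraries stood apart in markers of other cell types. Of the ventricular cardiomyocyte list, Myl2 had FPKM of 854 to 2361 and Myh6 of 1541 to 3373 over all libraries. Their log2 fold changes were -1.08 and -0.53. The tested atrial genes (Myl7, Myl4 and Sln, 3 of 4 listed) were high in Chow replicate 3 and HFpEF replicates 1 and 2, where the list summed to 342, 1556 and 2882 FPKM, and summed to 0.528 to 12.6 in the other 3 libraries. Of 9 adipocyte genes, 6 were tested, 5 with a log2 fold change above 0 and 1 below. The latter was Cidea, with FPKM of 15.4 to 19.9 in Chow and 10.3 to 16.4 in HFpEF (log2 fold change -0.28, limma adjusted p = 0.44). Adipoq, Cfd and Cidec were DEGs, against 0.0562% of all genes tested. They had no reads in Chow (0 in each library) and 51 to 591 per HFpEF library. Each passed the FPKM minimum only through HFpEF libraries, so its place was partly set by the filter. Of these 3 adipocyte genes, the number with an adjusted p under 0.05 was 0 with voom on recovered reads, and 1 gene of the list passed with the replicate number as a block, with a pseudocount of 1 or 0.01, and without any 1 library other than HFpEF replicate 3. The 8 fibroblast genes summed to 264 to 313 FPKM in Chow and to 520, 570 and 5383 in HFpEF replicates 1, 2 and 3, and 8 of 8 had a log2 fold change above 0. The 12 cartilage genes summed to 5.62 to 6.33 FPKM in Chow and to 41.4, 9.68 and 36.8 in HFpEF replicates 1, 2 and 3. For 7 ventricular cardiomyocyte genes the sum was 14465 to 16026 FPKM in Chow and 7017 to 10906 in HFpEF, with a median log2 fold change of -0.65 that was 0.05 under quantile normalization. The part of these other cells in the results for Schwann cell genes was not tested.

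**Figure D3:**
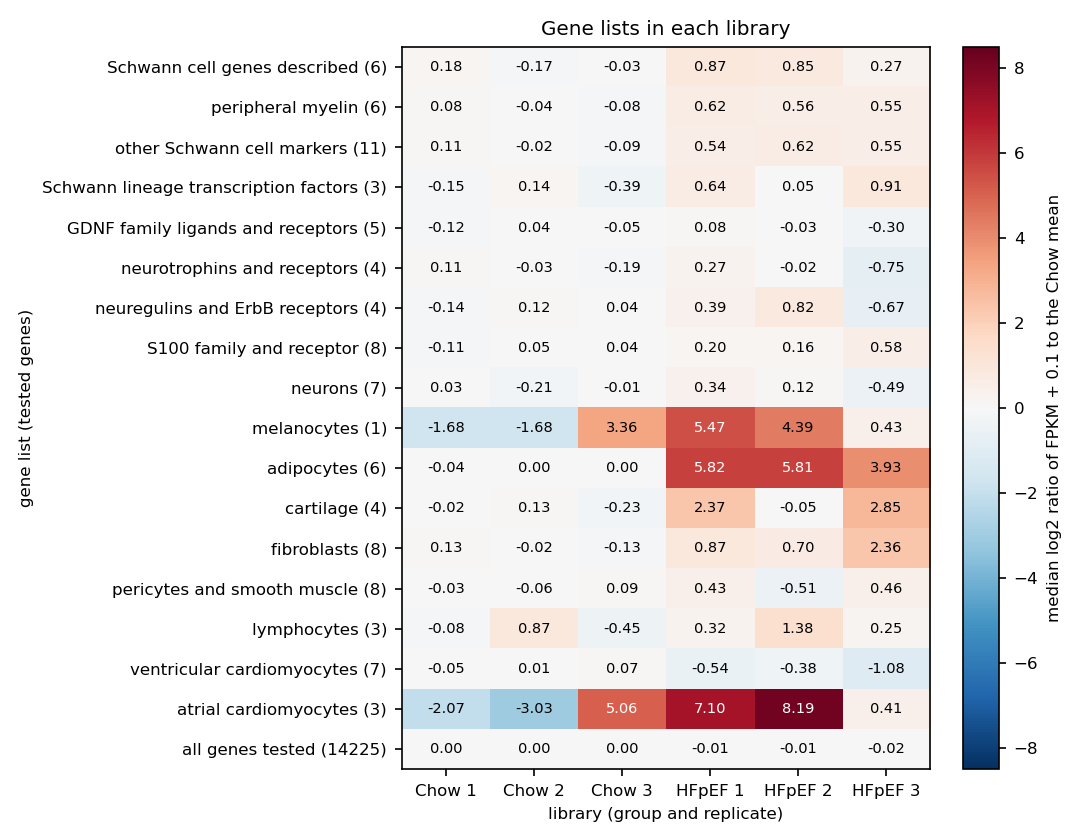
Median over genes of log2(FPKM + 0.1) minus its mean in Chow (colour and printed value) for the tested genes of each list (rows, number of tested genes in brackets) in each library (columns). The 6 Schwann cell genes stand at 0.87, 0.85 and 0.27 in HFpEF replicates 1, 2 and 3, fibroblast genes at 0.87, 0.70 and 2.36, and atrial genes at 5.06 in Chow replicate 3.

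Neural crest derivatives other than Schwann cells can carry Sox10, S100b and Ngfr. Of genes of the melanocyte, a further Sox10-positive cell of the neural crest, Tyr, Tyrp1 and Oca2 had 0 to 3 reads per library. Dct was detected in every library, with 17 to 54 reads in Chow and 15 to 91 in HFpEF, and Pmel had 2 to 6 and 0 to 33. Mlana had 41, 207 and 119 reads in Chow replicate 3 and HFpEF replicates 1 and 2, 7 in HFpEF replicate 3 and 0 in Chow replicates 1 and 2, and the first 3 of these are the libraries in which atrial genes were high. Melanocyte genes summed to 0.264 to 4.12 FPKM in Chow and 1.93 to 14.3 in HFpEF, and 1 of 7 was tested. Th and Chat, enzymes of catecholamine and acetylcholine synthesis in autonomic neurons, had 0 reads in every Chow library and at most 8 in an HFpEF library. Other genes of the neuronal list had more. Dbh had 48 to 79 reads in Chow and 18 to 127 in HFpEF, and Stmn2 had 44 to 84 and 58 to 105. Of 21 neuronal genes 7 were tested, 4 with a log2 fold change above 0 and 3 below, and their median was 0.10. The list summed to 9.65 to 11.8 FPKM in Chow and 15.9 to 16.3 in HFpEF. Tubb3 and Uchl1 gave 6.68 and 6.03 FPKM of the sum in HFpEF replicate 3. Pericyte and smooth muscle genes summed to 321 to 361 FPKM in Chow and 710, 235 and 534 in HFpEF replicates 1, 2 and 3. Of that sum, Acta2 gave 53.2 to 77.9 in Chow and 422, 48.8 and 262 in HFpEF replicates 1, 2 and 3. Of 8 genes tested, 5 had a log2 fold change above 0 and 3 below. The 3 were Rgs5 at -0.29, Kcnj8 at -0.50 and Abcc9 at -0.81. Lymphocyte genes summed to 1.74 to 4.97 FPKM in Chow and 2.96 to 8.67 in HFpEF. The part of these other cells in the Schwann cell values was not tested either.

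**Figure D4:**
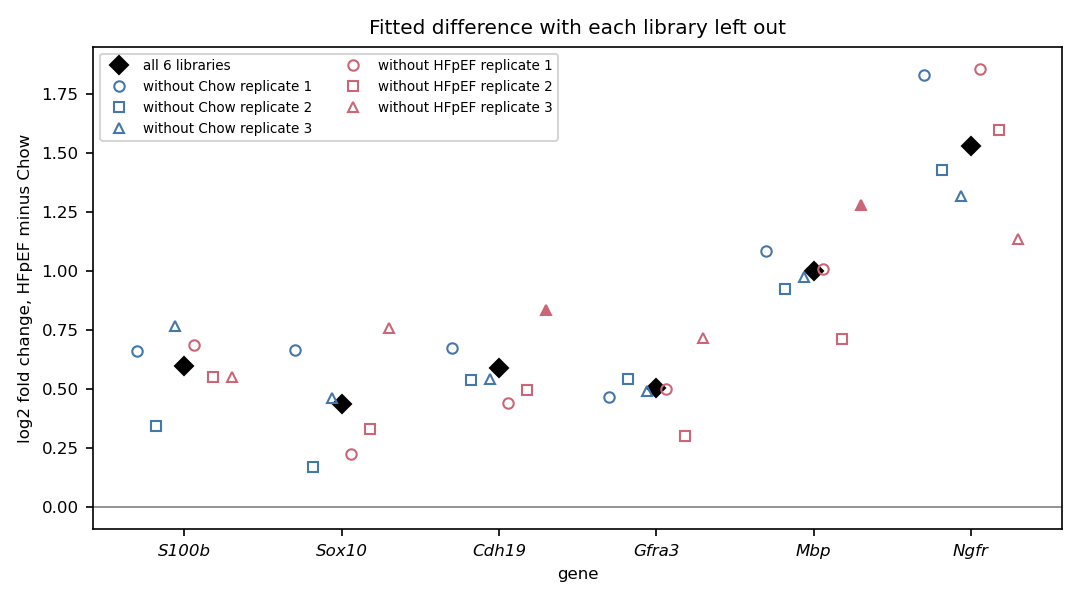
Fitted log2 fold change (vertical axis, HFpEF minus Chow) of the 6 Schwann cell genes with all 6 libraries (diamonds) and with each library left out in turn (open symbols, filled where the limma adjusted p was under 0.05). All values lie above 0, and the filled symbols are Cdh19 and Mbp without HFpEF replicate 3.

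Without HFpEF replicate 3, the library with the highest collagen levels, Cdh19 and Mbp had an adjusted p under 0.05 in limma. Their log2 fold changes were 0.83 (limma adjusted p = 0.0343) and 1.28 (limma adjusted p = 0.0329), under the fold threshold for a DEG. The HFpEF libraries left in this fit, replicates 1 and 2, had high atrial genes, which among Chow libraries held for replicate 3 alone. Atrial content thus differed between the groups of this fit, and its part was not tested. In that fit the log2 fold change was 0.72 for Gfra3 (adjusted p = 0.0543), 0.76 for Sox10 (adjusted p = 0.204), 0.55 for S100b (adjusted p = 0.329) and 1.14 for Ngfr (adjusted p = 0.19). At an adjusted p under 0.05, 1169 of the 14225 genes tested passed without this library and 14 with it, which is the background for these calls. Pmp22 and Scn7a passed there too (adjusted p = 0.0184 and 0.0254), as did Nrtn, Sort1 and Erbb4 of the growth factor lists, at log2 fold changes of 0.53, 1.04 and 0.98. S100a1 passed in the other direction (log2 fold change -0.59, adjusted p = 0.0136), S100a11 and S100a6, the latter chosen after its values were seen, passed (adjusted p = 0.0494 and 0.0219), and so did 5 of the 7 ventricular cardiomyocyte genes. No gene of the 6 passed when any of the other 5 libraries was left out. The value of Sox10 ran from 0.17 without Chow replicate 2 to 0.76 without HFpEF replicate 3, that of Ngfr from 1.14 to 1.86, and that of S100b was 0.34 without Chow replicate 2.

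Among the 3 libraries with high atrial genes alone, HFpEF replicates 1 and 2 were above Chow replicate 3 in all 6 genes, with log2 fold changes of 0.19 for S100b, 0.69 for Sox10, 0.91 for Cdh19, 0.72 for Gfra3, 1.31 for Mbp and 1.55 for Ngfr. Among the other 3 libraries, HFpEF replicate 3 against Chow replicates 1 and 2, the log2 fold change was 0.86 for S100b, 0.42 for Mbp and 2.10 for Ngfr, while Cdh19 and Gfra3 stood at 0.06 and 0.07 and Sox10 at -0.18. Each split leaves 1 mouse in a group, Chow replicate 3 in the first and HFpEF replicate 3 in the second. The lone library was assumed to vary like the others, and neither split makes a call. The first split was not matched for atrial content, as the atrial list summed to 342 FPKM in Chow replicate 3. In HFpEF replicates 1 and 2 it summed to 1556 and 2882 FPKM. These splits were chosen after the data were seen.

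The genes outside all lists whose profiles were nearest to the mean of the 6 Schwann cell genes over the 6 libraries were Nr2f1, with a root mean square difference of 0.095 on the log2 scale, an unnamed gene (ENSMUSG00000109836) at 0.135, and Ucp2, Prrt1 and Pum3 at 0.137 to 0.140. Nr2f1 had FPKM of 0.853 to 1.01 in Chow and of 1.56, 1.91 and 1.56 in HFpEF replicates 1, 2 and 3. The nearest single genes were Zc3h11a and Rasgef1b for S100b, Pcbd1 and Tmem108 for Sox10, Car11 and BC043934 for Cdh19, Ccdc149 and B230217O12Rik for Gfra3, and Ppl and Slc38a1 for Mbp. For Ngfr they were Trim59 and Apoe, at 0.158 and 0.191, and Apoe had FPKM of 178 to 252 in Chow and of 346, 449 and 935 in HFpEF replicates 1, 2 and 3. Nearest neighbours out of 14225 genes over 6 libraries are a description of these libraries.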

How the data were processed

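Left ventricular RNA from 3 Chow and 3 HFpEF mice was examined, with groups and replicate numbers from the sample titles. Clean reads were aligned with HISAT2 and counted per gene with featureCounts, and the authors deposited FPKM for 54532 genes, which name no gene model release. The submitters' processing notes name GRCm38. FPKM multiplied by the exon length in GENCODE M21 gave whole multiples of 1 step for 96.1% to 96.2% of values above 0 at a relative tolerance of 1e-06, from which reads were recovered (13076772 to 15574914 per Chow and 13461735 to 16027084 per HFpEF library). Gfra3 and Mbp came out whole only at lengths of 1992 and 8403 bases in place of 1997 and 8469, so their reads rest on those lengths. The FPKM denominator implied by the step was 1.17e+07 to 1.42e+07 in Chow and 1.38e+07 to 1.93e+07 in HFpEF libraries. It lay below the recovered reads in every Chow library and above them in every HFpEF library. The deposited FPKM thus carry a further scaling between libraries, whose cause was not tested. Poisson intervals and limits cover counting error only, and a deeper library gives a narrower interval.

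FPKM was scaled by the median of ratios (factors 0.999 to 1.00), and log2(FPKM + 0.1) was fitted with limma 3.58.1 in R 4.3.3 (lmFit, eBayes with trend and robust options) over all genes that reached an FPKM of 0.5 in 3 or more libraries. The authors used DESeq2, and their methods give the same thresholds. Their results text gives the same fold threshold with a p that is not described as adjusted. The paper reports more DEGs than the main fit found here, and the reason was not tested. FPKM is not a count, so limma was used here. A fold change on this scale understates that of low genes. The fit was tested on simulated data. Tables were handled in pandas 2.3.3 and numpy 2.4.6 under Python 3.11.15, exact tests in scipy 1.17.1, and plots in matplotlib 3.10.9.

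The 6 genes and all lists were chosen with earlier results of these data known, and the lists were written by hand. Named genes were the 6, at most 4 genes per list in order of abundance, list genes with an adjusted p under 0.05, tested growth factor genes and the nearest profiles. Prx, Mag, Gjb1, Artn, Th, Chat and other genes given with reads were also named for their role. Alternatives were FPKM as deposited, quantile normalization, other pseudocounts and filters, plain eBayes, voom on recovered reads, the replicate number as a block, other call rules and leaving out libraries. All 6 libraries were used. Proteomic data were not analysed here, and results for some genes of the lists are not reported here.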

Additional observations from a re-analysis of the deposited data

How the results depend on the processing

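Of 101 log2 fold changes of the 6 Schwann cell genes under an alternative setting, 100 were above 0 and 97 kept their side of the threshold of an adjusted p under 0.05. The exception in sign was Sox10, at -0.18 without the 3 libraries with high atrial genes, and the 3 past it were Cdh19 and Mbp without HFpEF replicate 3 and Ngfr without those 3 libraries, where 1 HFpEF mouse is left and no call can be made. No filter, an FPKM minimum of 1, plain eBayes and the replicate block leave a log2 fold change unaltered by construction. Their values among the 101 could not change sign, and those of FPKM as deposited were nearly the same as in the main fit. Leaving out 1 library each gave 0.34 to 0.77 for S100b, 0.17 to 0.76 for Sox10, 0.44 to 0.83 for Cdh19, 0.30 to 0.72 for Gfra3, 0.71 to 1.28 for Mbp and 1.14 to 1.86 for Ngfr. A pseudocount of 1 lowered the value of Ngfr from 1.53 to 0.72. With an FPKM minimum of 1, Ngfr was not tested. Of the other named genes, Zfp536, Ntf3, Nrg2, Erbb3 and S100a16 changed sign under 1 or 2 of the settings that use all libraries or leave out 1. Sort1, Erbb4, Mal and other genes of the lists changed sign in a split by atrial genes. The number of the 6 past the DEG threshold was 0 under every other setting tried and 1 without the 3 libraries with high atrial genes.

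The number of DEGs among all genes moved more. It was 8 as reported, 2 with a pseudocount of 1, 3 with a pseudocount of 0.01, 5 with an FPKM minimum of 1, 19 with eBayes without trend or robust options, 109 with an unadjusted p, 14 with no fold threshold and 408 without the 3 libraries with high atrial genes, a split chosen after the data were seen. Leaving out 1 library each gave 2 to 59, the highest without HFpEF replicate 3, and 24 without HFpEF replicate 2. It was 8 with FPKM as deposited, 9 with quantile normalization and 10 with no filter. With voom on recovered reads, 0 of 14220 genes had an adjusted p under 0.05 and 1557 were higher and 1774 lower at an unadjusted p under 0.05. The cause of these moves was not tested.

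With the replicate number as a block the count was 2, and the adjusted p of the 6 genes ran from 0.201 to 0.479, so no call among them was altered. Same-numbered libraries correlated at -0.04, -0.07 and -0.06 in their deviations from the group means, so the numbers were not taken as a pairing. At 10 to 41 reads per library for S100b and 10 to 29 in Chow for Ngfr, depth limits the comparison of single mice.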

Other observations

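HFpEF replicate 2, the library with the highest Mbp and Gfra3, held reads of genes of parasympathetic neurons that the other libraries lacked or nearly lacked. Slc5a7, the choline transporter, had 20 reads in it and 0 in each of the other 5, and Slc18a3, the vesicular acetylcholine transporter, had 11 reads against 1 in Chow replicate 2 and 0 elsewhere. Npy, a neuropeptide of sympathetic and some parasympathetic neurons, had 11 reads in that library and 0 in the other 5. Prph, the intermediate filament of peripheral neurons, had 39 reads there, 14 and 10 in HFpEF replicates 1 and 3, and 1 to 2 in Chow. None of these genes reached the FPKM minimum in 3 libraries, and no test was made. They were chosen after their values were seen.

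Fabp7, a fatty acid binding protein of immature Schwann cells and other glia, had the largest fitted difference of the 4 Schwann cell lists. It had 1, 2 and 2 reads in the Chow libraries and 14, 15 and 22 in the HFpEF libraries, with a log2 fold change of 2.14 (standard error 0.44, limma adjusted p = 0.104), and passed the FPKM minimum only through HFpEF libraries. Ncam1, an adhesion molecule of non-myelinating Schwann cells and other cells, had FPKM of 0.639 to 0.767 in Chow and of 2.25, 1.13 and 2.15 in HFpEF replicates 1, 2 and 3 (log2 fold change 1.24, limma adjusted p = 0.117). Lgi4, a secreted protein that Schwann cells need for myelination, had FPKM of 0.613 to 0.904 in Chow and of 1.34, 1.34 and 1.11 in HFpEF (log2 fold change 0.74, limma adjusted p = 0.149). These were also chosen after their values were seen.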
